A study of Mus musculus with 5 samples.

Results

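The 36 genes described here encode aminoacyl-tRNA synthetases, and they were chosen by name from the 18307 genes of the RefSeq gene table. Of these, 20 encode cytosolic enzymes and 16 encode mitochondrial enzymes, which carry names ending in 2. All 36 passed the filter on low counts and were among the 13829 genes tested. RNA had been sequenced from heart ventricles of CD-1 mouse embryos, an outbred strain, at embryonic day E10.5. Pregnant dams had received caffeine at 20 mg/kg or a vehicle of 0.9% NaCl, daily from E6.5 to E9.5. Ventricles of embryos that shared dams were combined, and each pool gave 1 of 2 vehicle or 3 caffeine libraries. The labels do not say how many embryos entered a pool, and a p-value here measures the spread between these pools.

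Each synthetase joins its amino acid to the matching tRNA, the step that lets the ribosome read a codon as an amino acid. Cytosolic enzymes serve translation of nuclear genes, and several sit together in a multi-synthetase complex held by scaffold proteins. Mitochondrial enzymes are made from nuclear genes, imported, and serve the few proteins that the organelle itself translates, all of them parts of the oxidative phosphorylation machinery that supplies a beating ventricle with ATP. Gars and Kars make both forms from 1 gene. When amino acids run short, the kinase GCN2 raises the transcription factor ATF4, which binds a composite C/EBP-ATF element and switches on many cytosolic synthetase genes.

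Matches to this element are shown because the cytosolic synthetases include known ATF4 targets. The motif TGATGNAA, where N is any base, was searched on both strands from 250 bases before to 50 bases after each start site in the RefSeq promoter table (build GRCm38.p6). Of the 36 genes, 26 had an entry there, 12 cytosolic and 14 mitochondrial. A match was found in 5 of the 12 cytosolic and 0 of the 14 mitochondrial genes, counting a gene if any of its promoters matched. Counted per promoter and not per gene, 3.97% (1304) of all 32851 promoters held a match. The cytosolic genes with a match were Aars, Gars, Iars, Tars and Yars, all on the list of 12 known ATF4 targets, of which 8 had a promoter entry. For Gars, Iars, Tars and Yars the window of 30 bases is printed on the gene's strand with the 8 motif bases in capitals, and TTNCATCA is the same motif read on the other strand.
Gars (chr6:55037960-55037989): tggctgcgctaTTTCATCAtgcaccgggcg
Iars (chr13:49682126-49682155): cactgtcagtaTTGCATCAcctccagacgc
Tars (chr15:11399655-11399684): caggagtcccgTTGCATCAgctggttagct
Yars (chr4:129189895-129189924): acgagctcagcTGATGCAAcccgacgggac
The core TTGCATCA was shared letter for letter by Iars and Tars, and Yars held it in the opposite orientation. A match of letters is a description and shows no binding, and ATF4 binding was not measured.

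The libraries held 21713372 to 25048122 counts. Cardiomyocyte markers were abundant, with 7 of 7 tested and a summed level of 33050 to 36090 CPM (counts scaled to the size of each library) in vehicle and 29240 to 29920 CPM in caffeine, all caffeine sums below both vehicle sums. Myh7, the slow myosin heavy chain, ranged from 6957 to 9289 CPM. Markers of the foregut and hepatic endoderm summed to 7.58 and 116.5 CPM in vehicle and 7.22 to 37.6 CPM in caffeine, and Alb was at 0 in 3 of the libraries. Macrophage markers summed to 2.02 to 9.14 CPM, endocardial markers to 721 to 848 CPM and erythroid markers to 5985 to 10460 CPM, each sum with overlapping groups. The part of these markers in the results below was not tested. Rn45s, the ribosomal RNA precursor, was higher in both vehicle libraries, and its values stand beside those of Lars2 below.

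The levels of the genes were first set side by side as CPM per kilobase of transcript, since longer transcripts give more counts. Gars, the glycyl enzyme, stood highest, at 228 and 194 CPM per kilobase in the vehicle pools, compared with 191, 207 and 190.1 CPM per kilobase in the caffeine pools. Kars, the lysyl enzyme, came next with a median over the 5 libraries of 102 CPM per kilobase. The lowest library of Gars was above the highest library of Kars, which reached 114 CPM per kilobase. Below them Rars, Qars, Eprs, Hars, Dars and Nars had medians between 63.0 and 51.7 CPM per kilobase, and neighbours in that order overlapped between libraries. The cytosolic medians had a midpoint of 43.1 CPM per kilobase and ran down to 10.4 CPM per kilobase in Cars, the cysteinyl enzyme.

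Mitochondrial synthetases had a midpoint of 11.4 CPM per kilobase. Nars2, the mitochondrial asparaginyl enzyme, was the lowest of the 36, at 3.00 and 3.17 CPM per kilobase in the vehicle pools, compared with 3.49, 3.31 and 3.08 CPM per kilobase in the caffeine pools. Hars2 and Wars2 stood above it with medians of 5.19 and 5.34 CPM per kilobase. After Cars the lowest cytosolic median was 23.7 CPM per kilobase in Vars, and of the mitochondrial genes Lars2, the leucyl enzyme, and Iars2, the isoleucyl enzyme, stood above it. Iars2 lay between 39.3 and 43.9 CPM per kilobase. Lars2 spread from 33.9 to 125 CPM per kilobase over the 5 libraries, so its place in the order changed with the library.

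**Figure D1:**
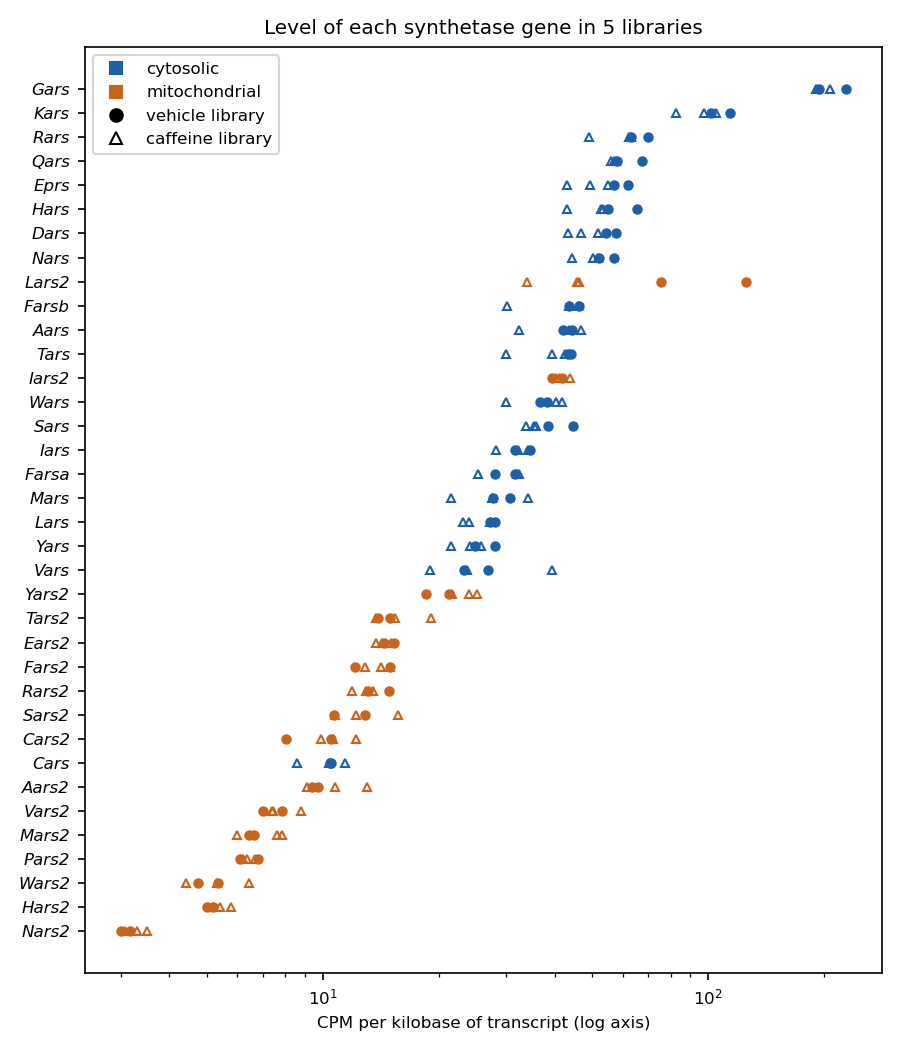
Level of each of the 36 synthetase genes in CPM per kilobase of transcript (log axis), with filled circles for the 2 vehicle and open triangles for the 3 caffeine libraries, ordered by the median. Gars lies highest and Nars2 lowest, and Lars2 is the mitochondrial gene with the widest spread, from 33.9 to 125 CPM per kilobase.

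For the same amino acid, the cytosolic gene stood above its mitochondrial partner in every library in 12 of 16 pairs, per kilobase, with Eprs counted in 2 pairs because it joins the glutamyl and prolyl enzymes in 1 protein. Nars exceeded Nars2 by the widest margin, 12.7 to 19.1 times, followed by Hars over Hars2 at 7.46 to 12.6 times. The order was turned around in 2 pairs. Lars was at 0.224 to 0.681 times the level of Lars2, and Iars at 0.697 to 0.828 times that of Iars2, with the limit that much of the Iars transcript resembles another gene, as given at the end. Cars with Cars2 and Yars with Yars2 crossed between libraries.

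Whether caffeine changed these genes was addressed by setting the 3 caffeine libraries against the 2 vehicle libraries with edgeR's quasi-likelihood test, adjusted over all 13829 genes. No synthetase passed a false discovery rate (FDR) of 0.05 in edgeR, and 1 of 36, Lars2, had an unadjusted p under 0.05, while DESeq2 called 1 of the 36, again Lars2. The background over all genes tested was 0.00723% at the FDR (1 gene, no synthetase), and at the unadjusted p 3.13% higher and 2.07% lower in caffeine. The 2 classes nonetheless leaned in opposite directions. Of the cytosolic genes 18 of 20 had a negative log2 fold change of caffeine against vehicle, with a median of -0.15, a count that was 19 under RLE scaling and 16 without scaling, where Cars and Wars turned positive. Of the mitochondrial genes 12 of 16 had a positive one, with a median of 0.10, and without scaling Ears2 and Pars2 turned positive as well. The mitochondrial median was 0.04 with 9 of 16 positive without vehicle replicate 2, 0.04 with 10 of 16 without caffeine replicate 3, and 0.06 without caffeine replicate 1. Over all genes tested 47.0% were negative and the median was 0.01. In bulk ventricle, fewer cells of a type and less RNA per cell cannot be told apart.

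**Figure D2:**
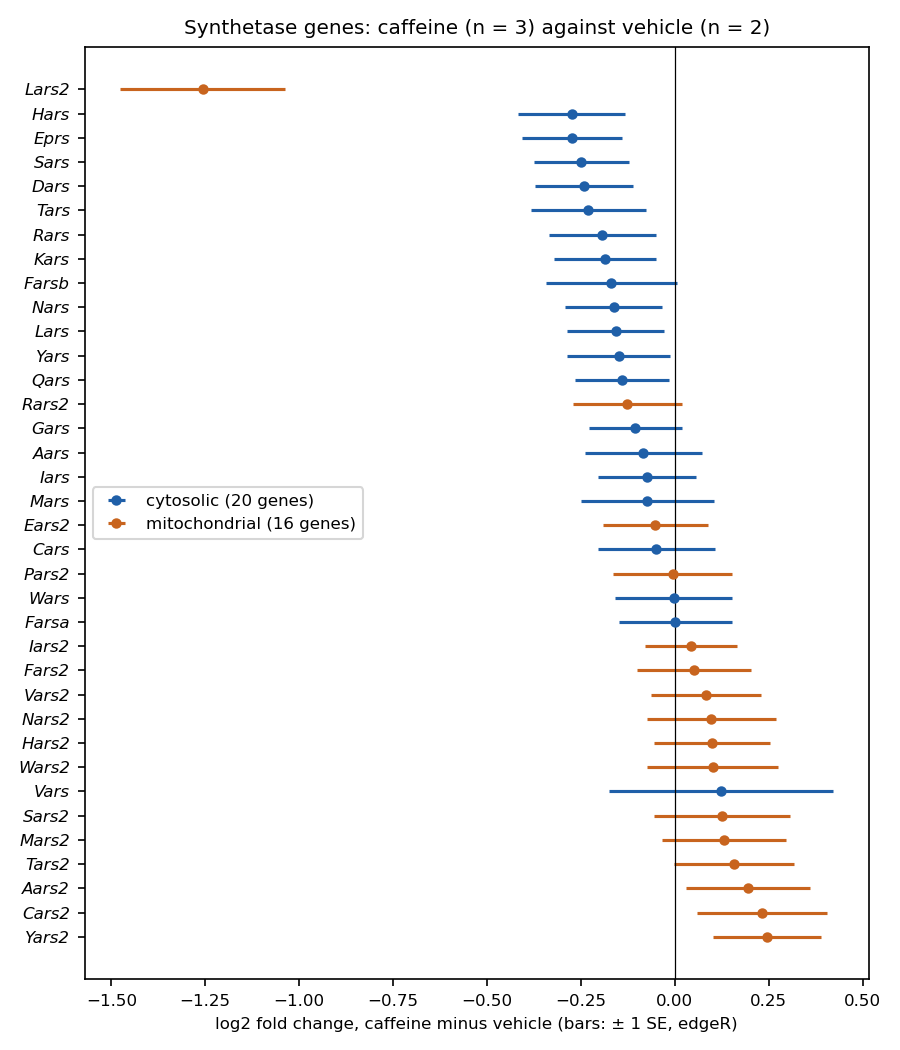
Log2 fold change of each synthetase gene, caffeine (n = 3) minus vehicle (n = 2), with bars of 1 standard error (SE) from edgeR, cytosolic genes in blue and mitochondrial genes in orange. Lars2 lies apart at -1.26, 18 of 20 cytosolic genes lie left of 0 (16 without library scaling) and 12 of 16 mitochondrial genes right of 0 (Ears2 and Pars2 as well without scaling).

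In 8 of the 20 cytosolic genes (40%), all 3 caffeine libraries lay below both vehicle libraries, against 9.27% of all genes tested, and in 0 of the 20 did all lie above, against 11.2%. These 8 were Dars, Eprs, Hars, Lars, Nars, Qars, Sars and Tars. Members of a class share libraries, so these counts describe 5 libraries and carry no test. The summed cardiomyocyte markers, given above, lay below vehicle in the same 3 libraries. Taken singly, 4 of the 7 markers (57.1%) did so, and 1 of the 7 had a positive log2 fold change. Eprs, on chromosome 1 at 185363095 to 185428355 of mm10, had the smallest p of the cytosolic genes. It measured 276 and 301 CPM in the vehicle pools, compared with 209, 267 and 239.6 CPM in the caffeine pools, so the closest libraries of the groups were 276 and 267 CPM. Its log2 fold change was -0.27 (SE 0.13), with an unadjusted p of 0.0629 and an adjusted p of 0.981 in edgeR.

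Hars, the histidyl enzyme, had 129.8 and 109.6 CPM in the vehicle pools, compared with 85.9, 105 and 106 CPM in the caffeine pools. The groups did not overlap, but vehicle replicate 2 was closer to caffeine replicates 2 and 3 than to vehicle replicate 1 (log2 fold change -0.27, SE 0.14). Sars, the seryl enzyme, which also loads the tRNA used for selenocysteine, had 153 and 131 CPM in the vehicle pools, compared with 115, 122 and 121 CPM in the caffeine pools. Its log2 fold change was -0.25 (SE 0.13). Dars, the aspartyl enzyme, had 125 and 118 CPM in the vehicle pools, compared with 94.2, 113 and 102 CPM in the caffeine pools (log2 fold change -0.24, SE 0.13). In all of Eprs, Hars, Sars and Dars the lowest library was caffeine replicate 1. Without vehicle replicate 1 the log2 fold changes of Hars and Sars were -0.15 and -0.14, and without vehicle replicate 2 they were -0.42 and -0.38. Without caffeine replicate 1 that of Hars was -0.18.

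Tars, the threonyl enzyme, separated the groups by less, with 114 and 116 CPM in the vehicle pools, compared with 79.1, 104 and 112 CPM in the caffeine pools. The gap between caffeine replicate 3 and vehicle replicate 1 was then small beside the range of the caffeine libraries, and the log2 fold change was -0.23 (SE 0.15), or -0.10 without caffeine replicate 1. Lars, Nars and Qars had log2 fold changes of -0.16, -0.16 and -0.14, each with an SE of 0.12 or 0.13. Without vehicle replicate 1 Nars and Qars were at -0.10 and -0.03, and without vehicle replicate 2 at -0.25 and -0.27. Without caffeine replicate 1 Nars was at -0.10. Their closest libraries were nearly level, as in Nars with 138 CPM in vehicle replicate 2 and 137 CPM in caffeine replicate 2. The other cytosolic genes had overlapping groups, with log2 fold changes from -0.19 in Rars, the arginyl enzyme, to 0.12 in Vars, the valyl enzyme. Vars rested on a single library, with 111 and 96.5 CPM in the vehicle pools, compared with 78.8, 98.0 and 163 CPM in the caffeine pools, and without caffeine replicate 3 its log2 fold change was -0.23.

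Caffeine replicate 1 was the lowest library in 18 of the 20 cytosolic genes, and caffeine replicate 3 in the other two, Gars and Qars. Over all genes tested, caffeine replicate 1 was lowest in 22.8%. Vehicle replicate 1 was the highest library in 11 of the 20, against 21.8% of all genes. The mean log2 CPM of the cytosolic class was 6.98 and 6.87 in the vehicle pools, compared with 6.58, 6.86 and 6.91 in the caffeine pools. Thus caffeine replicate 1 stood apart, caffeine replicate 2 lay just below both vehicle libraries, and caffeine replicate 3 lay between them. Without caffeine replicate 1 the cytosolic median was -0.09 with 14 of 20 negative, and without vehicle replicate 1 it was -0.10 with 16 of 20 negative. Without vehicle replicate 2 it was -0.24.

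**Figure D3:**
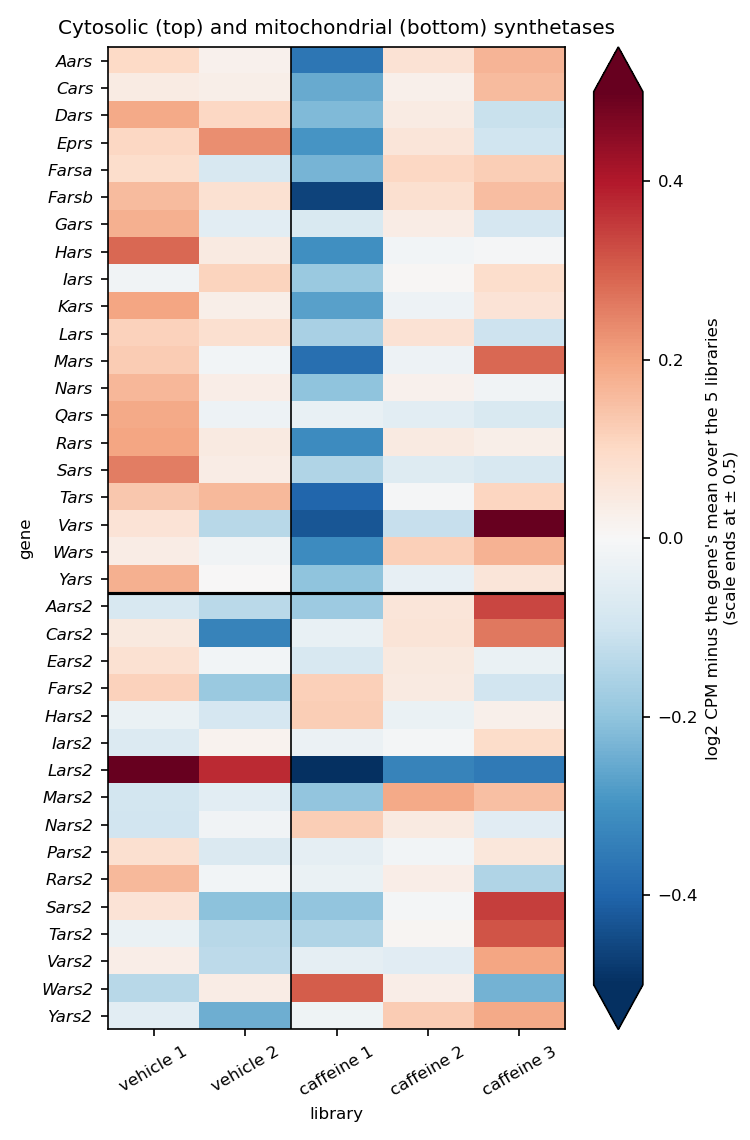
Log2 CPM of each synthetase gene in each library minus that gene's mean over the 5 libraries (red higher, blue lower, colours end at 0.5), with the 20 cytosolic genes above the line and the 16 mitochondrial genes below it. The column of caffeine replicate 1 is the lowest for 18 of the 20 cytosolic genes, and Lars2 is the mitochondrial row with the strongest contrast between vehicle and caffeine.

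By role, the 8 synthetases of the multi-synthetase complex all had negative log2 fold changes, with a median of -0.17, and 4 of them (50%) had all caffeine libraries below vehicle, against 9.27% of all genes. The complex genes ranged from -0.07 in Mars, the methionyl enzyme, to -0.27 in Eprs, and Mars was at 0.08 without caffeine replicate 1. Of the 12 cytosolic synthetases outside the complex, 10 were negative, with a median of -0.13. The 12 known ATF4 targets were negative as well, with a median of -0.13, and 5 of them (41.7%) had all caffeine libraries below vehicle, against 9.27% of all genes. The direction did not hold for Wars, at -0.003 and above 0 in 5 of 15 alternatives, for Cars without scaling or without caffeine replicate 1, for Aars and Mars without caffeine replicate 1, or for Gars without vehicle replicate 1. Among the 5 genes with the promoter motif shown above, Tars was at -0.23, Yars at -0.15, Gars at -0.10, Aars at -0.08 and Iars at -0.07. The structural classes I and II of the enzymes, which differ in the fold of the catalytic domain, had medians of -0.05 and -0.08.

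Mitochondrial synthetases other than Lars2 held 12 positive and 3 negative log2 fold changes, with a median of 0.10. Without vehicle replicate 2 this was 9 to 6 with a median of 0.05, and without caffeine replicate 3 it was 10 to 5 with a median of 0.05. Yars2, the tyrosyl enzyme, on chromosome 16 at 16302965 to 16309640, had the largest, with 33.3 and 29.2 CPM in the vehicle pools, compared with 34.1, 37.8 and 39.4 CPM in the caffeine pools. Its groups did not overlap, and the log2 fold change was 0.25 (SE 0.14), with an unadjusted p of 0.111 in edgeR, and without vehicle replicate 2 it was 0.13. Hars2, the histidyl enzyme, had 15.9 and 15.3 CPM in the vehicle pools, compared with 17.7, 15.9 and 16.6 CPM in the caffeine pools, so vehicle replicate 1 and caffeine replicate 2 were level after rounding. These 2 of 16 (12.5%) were the mitochondrial genes with all caffeine libraries above vehicle, near the 11.2% of all genes. Cars2 and Aars2, the cysteinyl and alanyl enzymes, had log2 fold changes of 0.23 (SE 0.17) and 0.19 (SE 0.16) with overlapping groups. Without vehicle replicate 2 Cars2 was at 0.03, and without caffeine replicate 3 Aars2 was at 0.05. Rars2, Ears2 and Pars2, the arginyl, glutamyl and prolyl enzymes, were the 3 negative ones, at -0.13, -0.05 and -0.01, and without scaling Ears2 and Pars2 were at 0.01 and 0.05.

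The next values are CPM not divided by length, since each follows the same genes across libraries. The class mean log2 CPM without Lars2 was 4.74 and 4.64 in vehicle and 4.72, 4.78 and 4.84 in caffeine, which overlap. The distance between the classes did not: the cytosolic mean exceeded the mitochondrial mean without Lars2 by 2.24 and 2.24 log2 units in vehicle and by 1.86, 2.08 and 2.08 log2 units in caffeine. The mean distance was 2.24 (n = 2) in vehicle and 2.00 ± 0.127 (SD, n = 3) in caffeine, a difference of -0.23. The vehicle libraries were less level with medians over members, at 2.20 and 2.25, against 1.84, 2.12 and 2.145 in caffeine. The distance compares genes of the same library. The difference was -0.16 without caffeine replicate 1, -0.15 with Lars2 kept among the mitochondrial genes, and -0.19 with medians in place of means.

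Within pairs for the same amino acid, the ratio of the cytosolic to the mitochondrial gene was lower in caffeine in 15 of 16, and in 9 of 16 all caffeine libraries lay below both vehicle libraries. No share over all genes was computed for ratios, and the 9.27% given for single genes is not a background for them. The ratios share libraries and Eprs stands in 2 of the pairs, so these counts describe 5 libraries and carry no test. Yars to Yars2 had log2 ratios of 1.27 and 1.28 in vehicle and of 0.86, 0.87 and 0.91 in caffeine, a difference of -0.40 between tight groups. Tars to Tars2 differed by -0.39, also without overlap. Hars to Hars2 differed by -0.37 and Sars to Sars2 by -0.36 on the same scale. The smallest shift was that of Vars to Vars2, at -0.02 with overlapping groups. Lars to Lars2 was the exception, with a log2 ratio higher by 1.06 in caffeine. Without caffeine replicate 1, 11 of the 16 ratios were lower in caffeine. The count of 9 without overlap was then unchanged, but leaving out a library cannot lower that count.

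**Figure D4:**
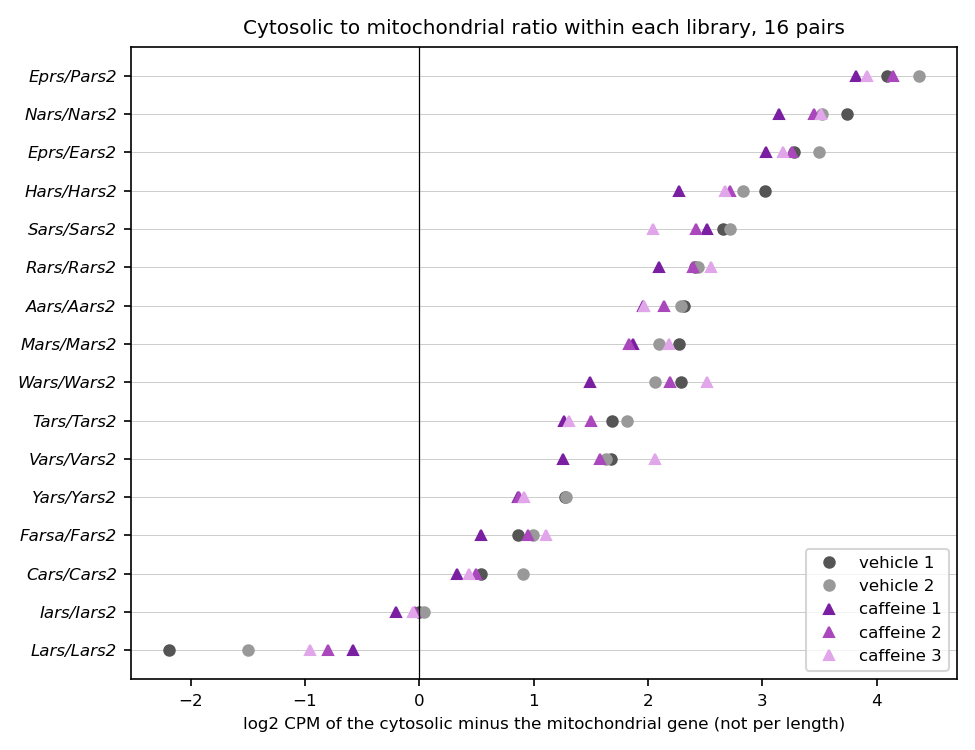
Log2 ratio of CPM of the cytosolic to the mitochondrial gene within each library for 16 pairs (circles vehicle, triangles caffeine, not per length). Caffeine triangles lie left of both vehicle circles in 9 pairs, and to their right in Lars/Lars2 alone.

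Lars2 stood apart from the other 35 synthetases. The gene lies on chromosome 9 at 123366940 to 123462664 of mm10, plus strand, and encodes the enzyme that charges mitochondrial leucine tRNA. It measured 486 and 293 CPM in the vehicle pools, compared with 132, 179.8 and 177 CPM in the caffeine pools, which is 390 ± 136 CPM (SD, n = 2) against 163 ± 27.1 CPM (SD, n = 3). All caffeine libraries lay below both vehicle libraries, and the vehicle libraries differed from each other by more than the caffeine libraries did. The log2 fold change was -1.26 (SE 0.22), with an unadjusted p of 0.000363 and an adjusted p of 0.383 in edgeR, and 26 tested genes had a lower log2 fold change. With DESeq2 it was -1.27 with an adjusted p of 2.86e-06. It was -0.85 with an adjusted p of 0.595 in edgeR without vehicle replicate 1, and -1.60 with an adjusted p of 0.0217 without vehicle replicate 2. Over the alternatives in which each library was left out in turn, the adjusted p in edgeR ran up to 0.751.

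Counts of Lars2 made up 49.8% and 38.5% of all mitochondrial synthetase counts in vehicle and 21.4%, 26.3% and 24.9% in caffeine. Its log2 CPM exceeded the mean of the other 35 by 2.90 and 2.28 in vehicle and by 1.26, 1.52 and 1.45 in caffeine. The next lowest log2 fold change among the 36 was that of Hars, at -0.27. The single RefSeq transcript of Lars2 carried all of its count.

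Rn45s, on chromosome 17 at 39842997 to 39848829, measured 8910 and 5303 CPM in the vehicle pools, compared with 1683, 2724 and 2672 CPM in the caffeine pools. The order of the 5 libraries was the same for Rn45s as for Lars2. The log2 fold change of Rn45s was -1.59 (SE 0.28), with an adjusted p of 0.415 in edgeR. Lars2 was at 5.45% and 5.53% of the Rn45s level in vehicle and at 7.83%, 6.60% and 6.64% in caffeine, so the Rn45s level differed by more. Rmrp, an RNA that takes part in processing the ribosomal precursor, had 1.81 and 1.05 CPM in the vehicle pools, compared with 0.0831, 0.215 and 0.590 CPM in the caffeine pools (log2 fold change -2.28, SE 0.58). Rmrp rested on few reads, with 44 and 23 counts in vehicle and 2, 5 and 13 counts in caffeine. The part of ribosomal RNA carry-over in the Lars2 values was not tested.

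The annotation holds a further feature at Lars2. A stretch of 72 bases in its 3 prime untranslated region (chromosome 9, 123462048 to 123462119) matched the antisense RNA gene Gm15564 on chromosome 16 at 98.6% identity, and 196 bases around it matched AA474408 on chromosome 7 at 80.1%. These 2 genes, and AY036118 inside the Rn45s span on the opposite strand, were chosen after their values were seen. In the Ensembl table Gm15564 had 2.77 and 1.58 CPM in the vehicle pools, compared with 0.625, 0.483 and 0.470 CPM in the caffeine pools, with a log2 fold change of -2.04 and an adjusted p of 0.176 in edgeR. AA474408 had 26 and 26 counts in vehicle and 14, 12 and 8 counts in caffeine, a log2 fold change of -1.19. AY036118 had 40.3 and 26.9 CPM in the vehicle pools, compared with 16.3, 19.8 and 20.8 CPM in the caffeine pools, a log2 fold change of -0.83. In all of them the caffeine libraries lay below both vehicle libraries, as in Lars2. Within caffeine, replicate 1 was the highest library for Gm15564 and AA474408, and the lowest for AY036118 and Lars2. Gm15564 rested on 11 to 72 counts per library. How many Lars2 counts came from the matching stretch was not tested.

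**Figure D5:**
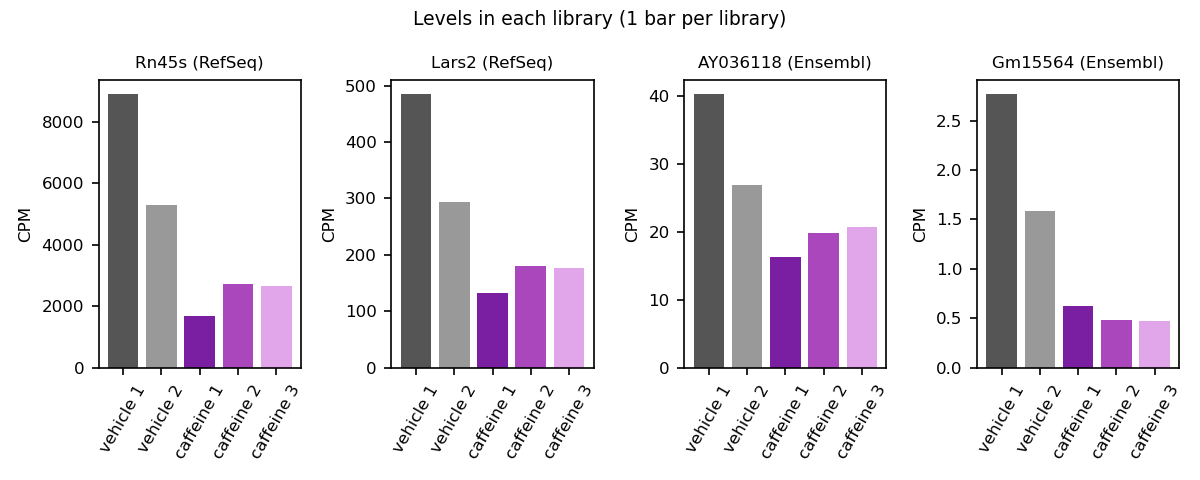
CPM of Rn45s and Lars2 (RefSeq table) and of AY036118 and Gm15564 (Ensembl table), 1 bar per library, each panel with its own axis from 0. Both vehicle bars exceed the 3 caffeine bars in each panel, with Lars2 at 486 and 293 CPM against 132 to 179.8 CPM.

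The transcript table held 51 transcripts of the 36 genes, of which 49 were tested. No transcript passed FDR 0.05 in edgeR, for the synthetases or among all 18418 tested (0%), with 1355 at an unadjusted p under 0.05, 4 of them synthetase transcripts. These were the Lars2 transcript, a minor Qars transcript at -0.99, a Kars transcript at -0.30 and a noncoding Yars2 transcript at 1.85 (SE 0.41) with an adjusted p of 0.286 in edgeR. The share of the noncoding transcript in the Yars2 counts was 2.97% and 2.65% in vehicle and 12.3%, 6.71% and 7.26% in caffeine. All 3 caffeine shares lay above both vehicle shares. The protein-coding Yars2 transcript itself had a log2 fold change of 0.16 (SE 0.15), smaller than that of the gene.

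Shifts between transcripts of 1 gene were tested in 10 synthetase genes with edgeR's diffSpliceDGE. None passed FDR 0.05, against 3.07% (89) of 2897 genes. Of the 10, 1 had an unadjusted p under 0.05, Yars2, which is not above the share among all genes tested for usage, 512 of 2897. The p of Yars2 was 0.00460 and its adjusted p 0.0805 in edgeR. Qars, whose minor transcript gave 2.03% and 2.00% of its counts in vehicle and 1.44%, 1.05% and 0.840% in caffeine, was next with an adjusted p of 0.308 in edgeR. Kars, whose 2 transcripts give the cytosolic and mitochondrial lysyl enzyme, had 23.3% and 28.3% of its counts on the less used transcript in vehicle and 26.8%, 23.4% and 21.7% in caffeine, with overlapping groups.

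The other genes of tRNA charging and translation were described from lists, none with a member past FDR 0.05 in edgeR. The 3 scaffolds of the complex, Aimp1, Aimp2 and Eef1e1, had log2 fold changes of -0.16, -0.02 and -0.11 with overlapping groups, and Aimp2 was above 0 without scaling. The transamidation enzymes, which make mitochondrial glutaminyl-tRNA in place of a mitochondrial glutaminyl synthetase, were at -0.06 for Pet112, -0.08 for Gatc and 0.19 for Qrsl1. Of 12 mitochondrial translation factors 8 were negative and 4 positive, with a median of -0.08, though 2 of them, both near 0, changed sign with the scaling. Their smallest p belonged to Ict1, a release factor of the mitochondrial ribosome, at -0.22 (SE 0.15), followed by Tufm at -0.19 and Mtif3, an initiation factor, at -0.19. Without vehicle replicate 1 Ict1 and Tufm were at -0.05 and -0.06, and without vehicle replicate 2 at -0.39 and -0.34. Of the 5 synthetase-like and editing genes 3 were negative, and Prorsd1 was lowest at -0.27.

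All 6 cytosolic elongation factors had negative log2 fold changes, with a median of -0.12, although 1 of them was above 0 without scaling. Eef1b2, a subunit of the factor that recharges the carrier of aminoacyl-tRNA with GTP, had 668 and 528 CPM in the vehicle pools, compared with 458, 467 and 397 CPM in the caffeine pools. Its groups did not overlap, and the log2 fold change was -0.44 (SE 0.14), with an unadjusted p of 0.00737 and an adjusted p of 0.731 in edgeR. Without vehicle replicate 1 it was -0.26. No other elongation factor had an unadjusted p under 0.05. Eef1g, of the same complex, was at -0.20 (SE 0.13), and Eef1d at -0.14.

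Genes of the amino acid response, the pathway known to control many cytosolic synthetases, had more positive than negative log2 fold changes, and the difference from the synthetases was not tested. Of 24 listed, 23 were tested, 16 with a positive and 7 with a negative log2 fold change and a median of 0.05, and 4 (17.4%) had all caffeine libraries above vehicle and 0 all below, against 11.2% and 9.27% of all genes. Of the 23, 4 with values near 0 changed sign with the scaling. Atf4 had 87.7 and 84.2 CPM in the vehicle pools, compared with 97.7, 107 and 127 CPM in the caffeine pools, which did not overlap. Its log2 fold change was 0.36 (SE 0.14), with an unadjusted p of 0.0248 and an adjusted p of 0.924 in edgeR. Eif2ak4, which encodes GCN2, had 18.3 and 22.1 CPM in the vehicle pools, compared with 25.4, 24.7 and 25.1 CPM in the caffeine pools (log2 fold change 0.31, SE 0.15, or 0.18 without vehicle replicate 1). Ddit3, a stress transcription factor that overlaps the end of Mars on the opposite strand, was at 0.30 (SE 0.20).

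Counts of some members can hold reads of other genes, through near-identical sequence or through overlap on opposite strands. For the overlaps, neither labels nor headers give the strand used in counting. The gene with the longest near-identical stretches was Iars, with 50.2% of its transcript at least 95% identical to other transcripts. The main match was Gm4849 (96.0% over 1656 bases), in the same orientation. Hars and Hars2 lie head to head, 74 bases apart in the gene table, so their deposited spans do not overlap. In the GENCODE transcripts, 195 bases of Hars matched a Hars2 transcript on the opposite strand. The Hars2 transcript kept within its deposited span had 0 bases in such stretches. Cars2 with Naxd, Fars2 with Lyrm4, Iars2 with Rab3gap2, Mars with Ddit3 (68 bases) and Nars2 and Vars2 with noncoding neighbours also matched on opposite strands. Of these named partners, Rab3gap2 and Ddit3 overlapped the deposited span of their member. The deposited spans of Pars2 and Yars also shared bases with those of Gm5506 and Gm5801 on the same strand. The partners named in this paragraph were taken from the sequence match or the gene spans and not from their values.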

How the data were processed

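Ventricle RNA from 2 vehicle and 3 caffeine pools was compared. The authors deposited estimated counts, per gene and per transcript, on RefSeq and on Ensembl release 71 annotations, per the file headers. TopHat and Partek are the tools, and mm10 and GRCm38 the builds, listed without versions in the submitters' processing notes. Expected counts were rounded to whole numbers. Low genes were removed with filterByExpr, TMM factors lay between 0.970 and 1.02, and robust two-sided quasi-likelihood tests were run in edgeR 4.0.16 (R 4.3.3). Their p-values were adjusted over all genes by Benjamini-Hochberg, at FDR 0.05. The common biological coefficient of variation was 0.145. Totals of 21713372 to 25048122 counts per library set the counting precision.

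CPM used the scaled totals. Lengths for CPM per kilobase came from GENCODE M21 transcripts, kept within the deposited gene spans and weighted by transcript counts. Transcript similarity was searched with BLAST 2.17.0 (at least 95% identity over 50 bases, with looser matches given for Lars2). The steps were tested on simulated data. The promoter windows of Aars are not reported here.

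All 36 members may be named, and of each list up to 3 genes with the smallest p. Members and lists were chosen with earlier results of these data known, so nothing here is independent support. Alternatives were other scalings and filters, DESeq2 1.42.0, limma-voom 3.58.1, a non-robust fit, the Ensembl tables, a replicate block and leaving out each library. The alternatives for the distance between classes and for the pair counts were chosen after seeing the data.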

Additional observations from a re-analysis of the deposited data

How the results depend on the processing

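Genes past FDR 0.05 numbered 1 in edgeR, 6 without a low-count filter, 20 with DESeq2 (10 higher, 10 lower), 2 in the Ensembl table, 52 with the replicate block (39 higher, 13 lower), and 0 to 18 when each library was left out. Synthetases past FDR 0.05 numbered 0, but 1 with DESeq2, 1 with the replicate block and 0 to 1 when each library was left out. At the unadjusted p they numbered 1, but 2 with the replicate block and 1 to 3 when each library was left out. Lars2 had a log2 fold change of -1.26, against -1.27 with DESeq2, -1.29 with the replicate block (adjusted p = 1.88e-10 in edgeR), and -1.60 to -0.85 when each library was left out. Transcripts past FDR 0.05 numbered 0, but 9 with the replicate block and 0 to 1 when each library was left out, and genes with shifted transcript usage numbered 89, but 3 with the replicate block and 15 to 53 when each library was left out. The replicate block fits a level for each replicate number, and caffeine replicate 3 has no vehicle library of its number. This leaves very little from which to estimate the spread, so the block's adjusted p and counts past FDR 0.05 carry little weight. The cause of these changes was not tested. The cytosolic median log2 fold change stayed below 0 and the mitochondrial median above 0 in each of the 15 alternatives, at -0.22 and 0.03 with the replicate block. Of the 36 members, 22 (13 cytosolic, 9 mitochondrial) kept their sign in all 15. Deviations of same-numbered vehicle and caffeine libraries from their group means had correlations of -0.022 and 0.13. With 2 vehicle libraries the deviation of 1 mirrors that of the other, so this check could not decide whether the numbers mark pairs. The main tests did not take them as pairs.

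With 2 vehicle libraries, the spread between vehicle pools rests on a single difference. The SE of a cytosolic member, 0.12 to 0.30, is similar in size to many of the log2 fold changes given for them, and an adjusted p above the threshold does not show that a gene was the same in both groups. When a vehicle library was left out, the lone vehicle library was assumed to vary like the caffeine libraries.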
